A study of Mus musculus with 49 samples.

Results

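Dorsal root ganglia (DRG) of 12 mice at 2 months of age in normoxia were compared by genotype, 6 HbSS-BERK (sickle) against 6 HbAA-BERK (control) libraries. They were chosen as every library of the raw count table whose heading names one of these genotypes, this age and normoxia, and they are 12 of the 49 samples in the labels, of which 48 were used. In both strains both copies of the mouse's own α and β globin genes are knocked out and human transgenes stand in for them. The HbSS-BERK transgenes encode α globin and the sickle form of β globin (βS). HbAA-BERK mice carry α and normal β globin (βA) and were bred by backcrossing to HbSS-BERK mice on a mixed background. Both groups breathed room air, while the groups used below for comparison were 2-month-old mice given hypoxia/reoxygenation (H/R) and 5-month-old mice in normoxia. Each library holds poly(A) RNA of the DRG of 1 mouse, so that sensory neurons, glia, vessels and any blood left in them were read together. Neither the sex nor the litter is given in the labels, and 2 of the HbAA-BERK libraries share a heading and are called unnumbered 1 and 2.

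In the DRG lie the cell bodies of the sensory neurons that carry touch, heat and pain from the body to the spinal cord. Red cells are made elsewhere, in the marrow and, in mice, also in the spleen, from progenitors that divide under the hormone erythropoietin. The factors GATA1, TAL1 and KLF1 then switch on the genes for heme, globin and the red cell membrane before the nucleus is lost. The youngest red cells in blood, the reticulocytes, still hold RNA of these genes. Sickle hemoglobin polymerizes when it gives up oxygen, red cells break early, and the body answers the anemia with more red cell production.

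The 6 HbSS-BERK libraries held 15.4 to 22.5 M reads on named genes (median 17 M) and the 6 HbAA-BERK libraries 14.2 to 20.7 M (median 17.2 M). The median coefficient of variation between mice was 16.2% in HbSS-BERK and 15.6% in HbAA-BERK libraries. No library held a read of the knocked-out globins (0 reads of Hba-a1 and Hba-a2, of Hbb-bs and Hbb-bt, and of Hbb-b1 and Hbb-b2). The first principal component (38% of the variance) set replicates 1 to 3 of both genotypes apart from the other 6 libraries, with HbSS-BERK replicate 1 near the border. The second (21%) set every HbSS-BERK library apart from every HbAA-BERK library. All 12 libraries held Y-linked transcripts and 0 to 2 reads of Xist.

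Red cell genes led the differences between the genotypes. Of 15146 genes tested with edgeR, 191 rose in HbSS-BERK mice (1.26%) and 44 fell (0.291%), at a Benjamini-Hochberg adjusted p under 0.05. By the stricter rule of the study, a change of 2-fold or more with a Bonferroni p under 0.05, 42 rose (0.277%) and 2 fell (0.0132%). This total of 44 was 26 without HbAA-BERK replicate 1, 26 without HbAA-BERK replicate 2, 29 without HbAA-BERK replicate 4, 27 without HbAA-BERK unnumbered 1 and 126 with DESeq2. The 44 genes that fell by the first rule were 29 without HbAA-BERK unnumbered 2 and 29 without HbSS-BERK replicate 4. Levels are given below as CPM, counts per M (mega) reads of the library after TMM scaling. Every HbSS-BERK library lay above every HbAA-BERK library for 215 genes (1.42%) and below for 102 (0.673%), and this held for 166 of the 191 genes that rose and 37 of the 44 that fell. Without HbAA-BERK replicate 3 the genes below numbered 208, but leaving out a library makes this condition easier to meet. With the replicate number as a block, which leaves 4 libraries of each genotype, 65 rose and 16 fell, and the same 8 libraries gave 51 that rose and 7 that fell without the block. Among replicates 1 to 3 alone 2 rose and 3 fell, and among the other 6 libraries 357 rose and 100 fell.

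**Figure D1:**
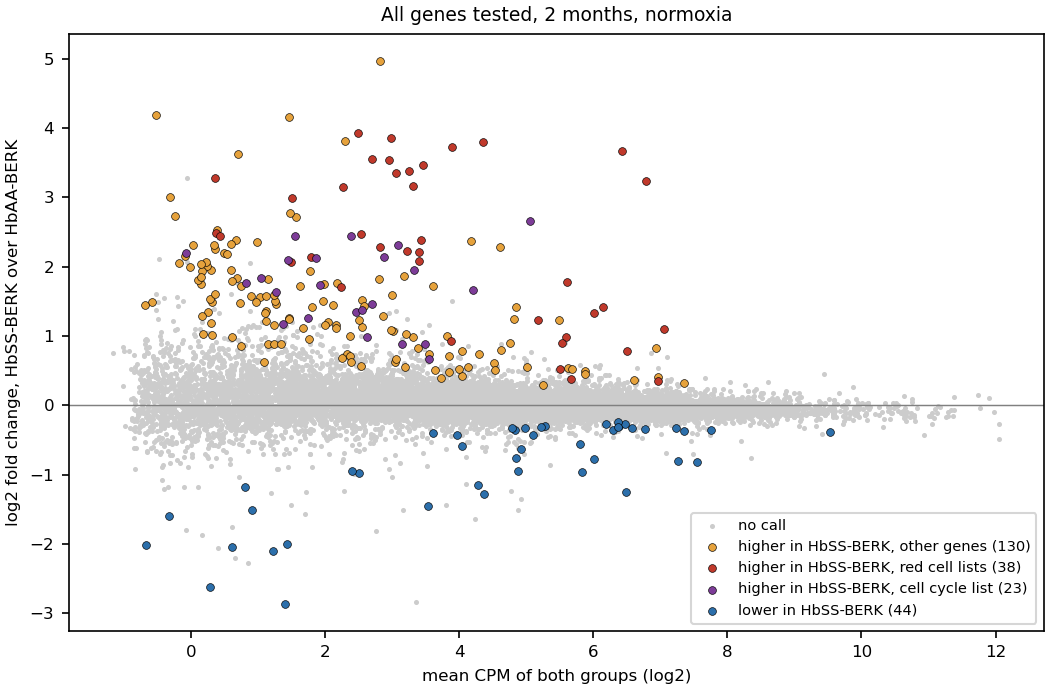
Log2 fold change of HbSS-BERK over HbAA-BERK (vertical axis) against the mean CPM of both groups on a log2 scale (horizontal axis), each point 1 of the 15146 genes tested. The 38 red cell list genes that rose (red) and the 23 cell cycle genes that rose (purple) stand above 0, and the 44 genes that fell (blue) stand below it, most of them with smaller changes.

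The 6 lists of red cell genes were written from textbook roles, but with earlier results of these data known. They held 75 genes of the table, and 74 of them passed the filter on low counts. Of these, 38 rose and none fell, beside 1.26% of all genes tested. The median log2 fold change of the 38, chosen for having risen, was 2.33, while the medians of the whole lists ran from 0.04 for the receptors to 2.28 for the membrane. Among replicates 1 to 3 alone the median of the 38 was 2.49 but 0 of the red cell genes passed the test, and among the other libraries it was 2.18 and 42 passed. Between 35 and 40 of the 74 rose when any 1 library was left out. In a bulk ganglion, more red cells and more of these transcripts per cell cannot be told apart.

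Of the 12 transcription factors of red cell formation, 6 rose (median log2 fold change of the list 0.81). Klf1, the activator that erythroid β-globin genes depend on, ran from 5.1 to 12 CPM in HbSS-BERK libraries (median 8.52), against 0.518 to 1.37 CPM in HbAA-BERK libraries (median 0.892). Its groups were far apart, and it rose by 3.15 on the log2 scale (SE 0.28, adjusted p = 0.00014). Gata1, the master factor of the red cell and megakaryocyte lines, ran from 2.78 to 7.79 CPM (median 5.39) in HbSS-BERK and from 0.348 to 1.2 CPM (median 0.492) in HbAA-BERK libraries, and rose by 3.00 on the log2 scale (SE 0.34, adjusted p = 0.00042 in edgeR). Its partner Tal1 rose by 2.23 (SE 0.25, adjusted p = 0.00038), the globin enhancer factor Nfe2 by 2.28 (SE 0.28, adjusted p = 0.00069) and the repressor Gfi1b by 2.44 (SE 0.34, adjusted p = 0.0019). Zfpm1, the GATA1 cofactor FOG1, rose less, by 0.93 (SE 0.19, adjusted p = 0.025), and its groups overlapped. The other members were Lmo2 (0.48, adjusted p = 0.061), Sox6, Ikzf1, Myb, Bcl11a and Ldb1 (0.07, adjusted p = 0.98), several of which are also used outside the red cell line.

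Among the 7 receptors and iron uptake genes only Epor rose (median of the list 0.04). Epor, the erythropoietin receptor, ran from 2.87 to 7.95 CPM in HbSS-BERK libraries (median 5.96), against 0.592 to 2.13 CPM in HbAA-BERK libraries (median 1.16), a log2 fold change of 2.15 (SE 0.32, adjusted p = 0.0032). The groups did not overlap. Tfrc, the transferrin receptor that most dividing cells carry, ran from 132 to 208 CPM in HbSS-BERK and from 109 to 157 CPM in HbAA-BERK libraries (0.35, adjusted p = 0.38). Kit, the stem cell factor receptor, which DRG neurons also make, had a log2 fold change of -0.05 (adjusted p = 0.98). Fam132b, which encodes erythroferrone, the hormone of erythroblasts that lowers hepcidin, averaged 1.29 CPM in HbSS-BERK and 0.468 CPM in HbAA-BERK libraries (1.43, adjusted p = 0.17).

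Heme synthesis rose at its erythroid first step and at some later ones, 5 of 13 genes in all (median of the list 0.38). Alas2, the erythroid form of the enzyme that starts the pathway, ran from 88.2 to 284 CPM in HbSS-BERK libraries (median 195), against 10.5 to 27.2 CPM in HbAA-BERK libraries (median 22.8). The log2 fold change was 3.24 (SE 0.31, adjusted p = 0.00014), and no HbAA-BERK library came near the lowest HbSS-BERK library. Slc25a37, the mitochondrial iron importer mitoferrin 1, rose by 1.78 (SE 0.19, adjusted p = 0.00026). Fech, which puts iron into the ring, rose by 0.79 (SE 0.13, adjusted p = 0.0044) and Abcb10, a mitochondrial transporter, by 0.38 (SE 0.08, adjusted p = 0.036). Steps between, which every cell uses, did not pass, with log2 fold changes of 0.61 for Cpox (adjusted p = 0.11), 0.56 for Ppox (adjusted p = 0.23), 0.16 for Urod (adjusted p = 0.74) and -0.22 for Alad (adjusted p = 0.84).

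Of 20 genes of the membrane and its skeleton 13 rose, and the median of the list was 2.28. Slc4a1, the anion exchanger band 3, ran from 60.1 to 274 CPM (median 147) in HbSS-BERK and from 5.66 to 17.1 CPM (median 12.7) in HbAA-BERK libraries, a change of 3.68 (SE 0.35, adjusted p = 0.00014). The Rh proteins followed the same pattern, Rhag with 3.56 (SE 0.37) and Rhd with 3.36 (SE 0.36, adjusted p = 0.00026 for both). So did the blood group antigens of Kel (3.54, SE 0.37, adjusted p = 0.00026) and Ermap (3.16, SE 0.30, adjusted p = 0.00014). Of the skeleton, Epb4.2, which ties band 3 to ankyrin, rose by 3.85 (SE 0.41, adjusted p = 0.00029) and Epb4.1, protein 4.1, by 1.34 (SE 0.20, adjusted p = 0.0028). Their partners that neurons also make did not pass: Ank1 had a log2 fold change of -0.01, Sptb 0.01, Add2 -0.05, Dmtn 0.03 and Tmod1 -0.25, with adjusted p of 0.72 or more. Ank1 stood at 366 to 580 CPM in HbSS-BERK and 383 to 587 CPM in HbAA-BERK libraries.

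Of 7 genes in the list of red cell cytosol 6 rose, among them Rhd of the membrane, which is in both lists, and the nuclear Hemgn. Bpgm, which makes the 2,3-bisphosphoglycerate that loosens oxygen from hemoglobin, ran from 77.1 to 136 CPM in HbSS-BERK libraries (median 98.7), against 29.9 to 46.7 CPM in HbAA-BERK libraries (median 38.3). Its log2 fold change of 1.42 (SE 0.16, adjusted p = 0.00037) came without overlap of the groups. Hemgn, a protein of erythroid cells, rose by 3.38 (SE 0.34, adjusted p = 0.00022) and the carbonic anhydrases Car1 by 2.47 (SE 0.36, adjusted p = 0.0029) and Car2 by 1.09 (SE 0.20, adjusted p = 0.013). Blvrb, biliverdin reductase B, rose by 0.52 (SE 0.12, adjusted p = 0.044), and Prdx2, a peroxidase abundant in red cells and also made by neurons, was at -0.06 (adjusted p = 0.9).

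Of 16 late maturation genes 8 rose (median of the list 0.52). Trim10, an E3 ligase family gene of terminal red cells, ran from 11.5 to 49.1 CPM in HbSS-BERK libraries (median 24.6), against 1.16 to 2.55 CPM in HbAA-BERK libraries (median 2.29), a change of 3.73 (SE 0.33, adjusted p = 0.00014). Trim58, which acts on dynein as the nucleus is lost, rose by 3.28 (SE 0.43, adjusted p = 0.0012) and Fam46c by 2.38 (SE 0.32, adjusted p = 0.0013). Bnip3l, which clears mitochondria from reticulocytes and is made in most tissues, rose by only 0.35 (SE 0.06, adjusted p = 0.0086), with 127 to 147 CPM in HbSS-BERK and 101 to 120 CPM in HbAA-BERK libraries, without overlap. Of the embryonic globins, Hba-x, the α-like chain of the first embryonic red cells, ran from 2.68 to 8.21 CPM in HbSS-BERK libraries (median 4.77), against 0.142 to 0.592 CPM in HbAA-BERK libraries (median 0.213), a change of 4.16 (SE 0.42, adjusted p = 0.00022). Hbb-bh1, the embryonic β-like chain, was under the filter, with 192 reads in HbSS-BERK and 14 reads in HbAA-BERK libraries. Of its CPM, HbSS-BERK replicate 5 held 6.89 and the other 5 HbSS-BERK libraries 0.0638 to 0.747.

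**Figure D2:**
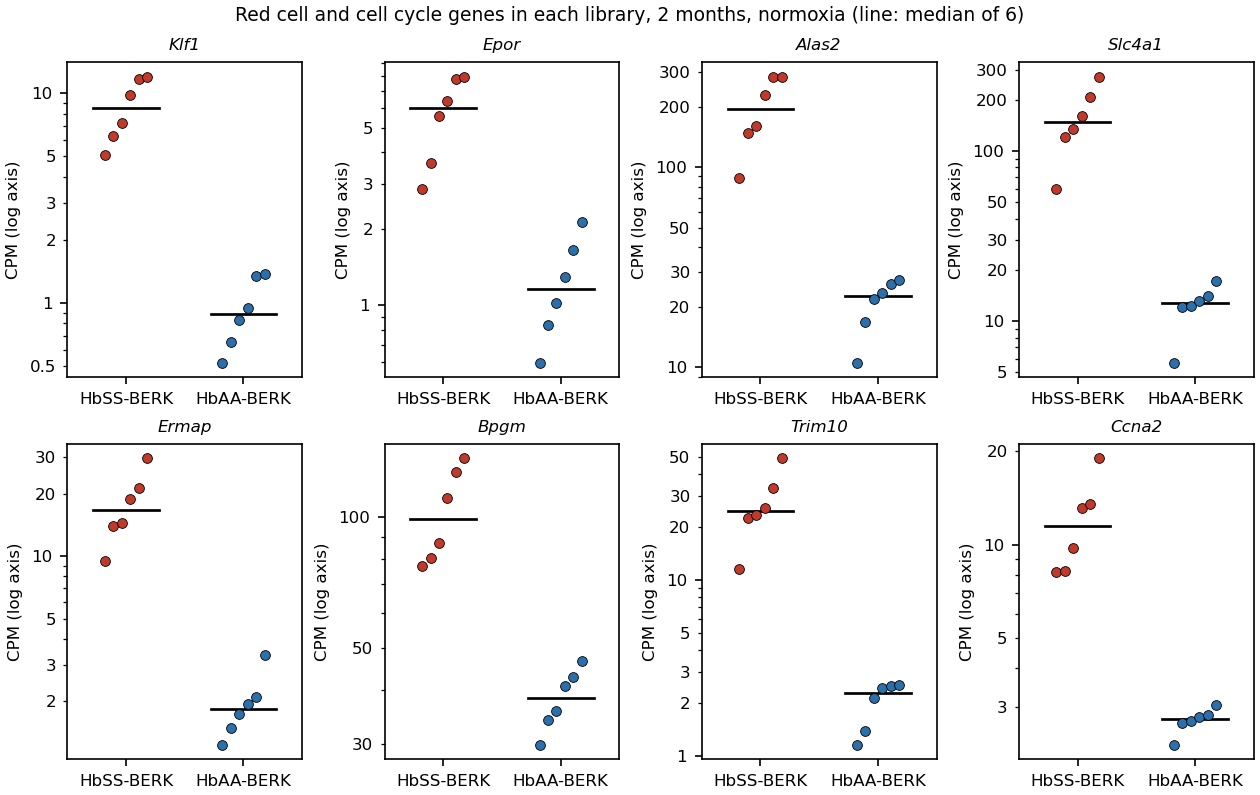
CPM of 7 red cell genes and the cyclin Ccna2 in each library (log axis), HbSS-BERK libraries on the left and HbAA-BERK libraries on the right of each panel, with a line at the median of 6. In each panel all 6 HbSS-BERK libraries lie above all 6 HbAA-BERK libraries, as for Alas2, whose lowest HbSS-BERK library had 88.2 CPM and highest HbAA-BERK library 27.2 CPM.

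The stretches of 250 bases before the start of these genes were read from the RefSeq promoter table (GRCm38.p6, the assembly behind mm10), with any promoter of a gene counted. They were searched on both strands for AGATAA, the letters that GATA factors prefer, read as TTATCT where they lie on the other strand, and for CACACCC, letters of the KLF1 type, read there as GGGTGTG. The GATA letters stood before 9 of the 26 red cell list genes that rose and have a promoter in the table (34.6%), before 24 of 150 of all genes that rose (16%), before 2 of 35 that fell (5.71%) and before 7.41% of the 11942 genes tested that have a promoter there. Of the 20 cell cycle genes that rose and have a promoter there, 1 held them (5%). The KLF1-type letters stood before 3 of the 26 (11.5%), before 14 of the 150 (9.33%), before 7 of the 35 that fell (20%) and before 8.92% of all. The 4 sequences below show where these letters stand in genes of different roles, a factor, the hormone receptor, the first enzyme of heme synthesis and a late gene. They run 5′ to 3′ along the strand of the gene up to the base before the start in the promoter table, with the letters searched for in capitals. A match is a description of these letters.
Klf1, chr8:84901732-84901981, plus strand: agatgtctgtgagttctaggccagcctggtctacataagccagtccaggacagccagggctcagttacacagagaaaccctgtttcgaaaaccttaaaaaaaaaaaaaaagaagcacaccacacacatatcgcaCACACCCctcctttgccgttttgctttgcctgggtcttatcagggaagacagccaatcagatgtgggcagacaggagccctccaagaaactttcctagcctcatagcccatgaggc
Epor, chr9:21963577-21963826, minus strand: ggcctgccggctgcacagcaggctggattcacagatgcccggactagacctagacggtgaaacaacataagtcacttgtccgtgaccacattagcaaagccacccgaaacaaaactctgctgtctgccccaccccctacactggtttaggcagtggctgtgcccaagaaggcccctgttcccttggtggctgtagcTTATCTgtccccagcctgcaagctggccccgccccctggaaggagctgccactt
Alas2, chrX:150547167-150547416, plus strand: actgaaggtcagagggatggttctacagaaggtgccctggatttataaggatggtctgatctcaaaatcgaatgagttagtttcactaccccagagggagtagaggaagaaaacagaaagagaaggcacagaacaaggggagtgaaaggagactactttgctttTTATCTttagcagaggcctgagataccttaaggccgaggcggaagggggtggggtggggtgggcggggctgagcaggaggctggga
Trim10, chr17:36869324-36869573, plus strand: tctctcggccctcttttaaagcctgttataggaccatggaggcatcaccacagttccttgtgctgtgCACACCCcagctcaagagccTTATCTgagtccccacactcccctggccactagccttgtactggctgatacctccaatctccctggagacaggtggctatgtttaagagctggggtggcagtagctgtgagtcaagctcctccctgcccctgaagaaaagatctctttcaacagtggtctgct
The KLF1-type letters in Klf1 begin 116 bases before the start, and TTATCT begins 54 bases before the start of Epor and 86 bases before that of Alas2. In Trim10 the KLF1-type letters begin 183 bases and TTATCT 163 bases before the start in the promoter table, without overlap. That start lies inside the gene, whose first annotated base is 36869496 on chromosome 17, so the stretch printed for Trim10 holds the first bases of the gene too.

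Genes of dividing cells rose with the red cell genes. Of 29 cell cycle genes 23 rose, all 29 had positive log2 fold changes, and the median of the list was 1.46, against 0.0047 over all genes tested. Rrm2, the small subunit of the enzyme that makes DNA precursors, ran from 9.06 to 23.8 CPM in HbSS-BERK libraries (median 13.4), against 2.32 to 3.35 CPM in HbAA-BERK libraries (median 2.89), a change of 2.32 (SE 0.22, adjusted p = 0.00014). Ccna2, cyclin A2, ran from 8.16 to 19 CPM in HbSS-BERK libraries (median 11.5), against 2.27 to 3.04 CPM in HbAA-BERK libraries (median 2.75), a change of 2.14 (SE 0.21, adjusted p = 0.00017). In neither did the groups overlap. Mki67, the nuclear antigen of cycling cells, rose by 2.66 (SE 0.34, adjusted p = 0.001), Ccnb2 by 2.45 (SE 0.28, adjusted p = 0.00047), Ube2c by 2.44 (SE 0.32, adjusted p = 0.0011) and E2f2, a cell cycle factor used in red cell formation, by 1.66 (SE 0.20, adjusted p = 0.00056). With all 8 groups of the series in 1 fit, 13 of the 29 rose and 35 of the 74 red cell genes. In the 8 numbered libraries, 6 of the 29 rose with the replicate block and 4 without it, beside 32 red cell genes with the block and 22 without it. The median of the 23 that rose was 1.84 in replicates 1 to 3, where none passed the test, and 1.71 in the other libraries.

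The HbSS-BERK mice differed among themselves in nearly the same order in both sets, with replicates 3 and 6 changing places. Summed over the 38 red cell genes, the HbSS-BERK libraries ran from 1107 to 2462 CPM and the HbAA-BERK libraries from 557.7 to 655.7 CPM. These genes were summed because they rose, so the gap between the genotypes is a description. Over all members of each list, the groups stayed apart for heme synthesis (640 to 1100 CPM in HbSS-BERK and 499 to 557 CPM in HbAA-BERK libraries), cytosol, maturation and the cell cycle. They overlapped for the membrane and skeleton (1608 to 2591 CPM in HbSS-BERK and 1529 to 1981 CPM in HbAA-BERK libraries), the transcription factors and the receptors. Over the 23 cell cycle genes that rose, the sums ran from 154.8 to 390.4 CPM in HbSS-BERK and from 58.96 to 93.36 CPM in HbAA-BERK libraries. HbSS-BERK replicate 2 had the highest sum and replicate 1 the lowest in both. Replicate 2 was the highest of the 6 HbSS-BERK libraries for 27 of the 38 red cell genes, for 17 of the 23 cell cycle genes and for 80 of the 129 other genes that rose, but for 17.1% of all genes tested. Replicate 1 was the lowest for 29 of the 38, 17 of the 23 and 57 of the 129, and for 11.8% of all. Without replicate 2 151 genes rose, and without replicate 1 184 rose.

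**Figure D3:**
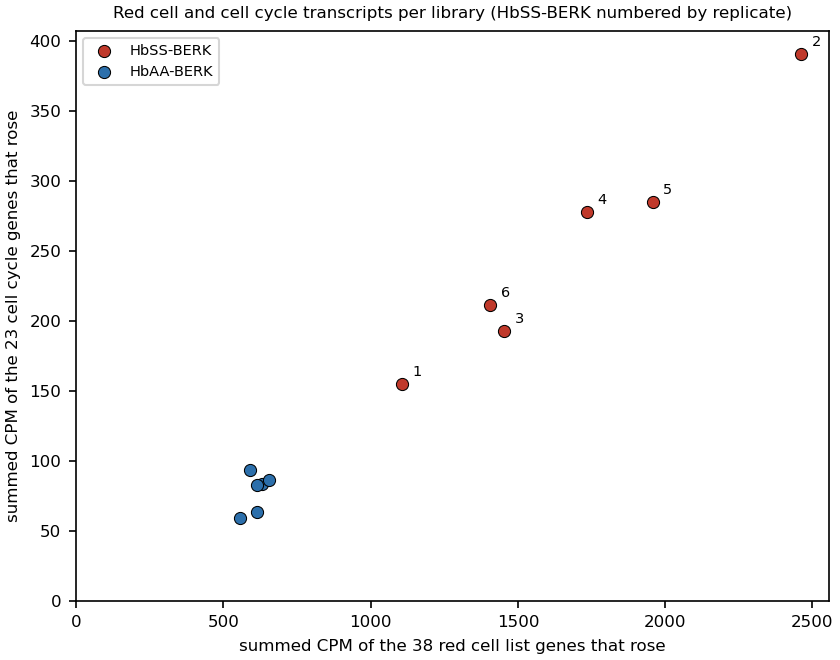
Summed CPM of the 23 cell cycle genes that rose (vertical axis) against the summed CPM of the 38 red cell list genes that rose (horizontal axis), 1 point for each library, HbSS-BERK in red with replicate numbers and HbAA-BERK in blue. The HbAA-BERK libraries lie together at 557.7 to 655.7 CPM, while the HbSS-BERK libraries are spread from replicate 1 at 1107 CPM to replicate 2 at 2462 CPM.

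At 1.55% of all genes called in either direction, lists of this size would hold few calls. None of 9 platelet and megakaryocyte, 18 neutrophil and granulocyte, 6 B cell, 3 T and NK cell and 16 macrophage genes tested, markers of other blood and marrow cells, rose or fell. The platelet list had a median log2 fold change of 0.71, with 8 of 9 genes positive, and its summed level ran from 28.3 to 64.6 CPM in HbSS-BERK and from 22.5 to 34.4 CPM in HbAA-BERK libraries. Of the granulocyte genes 16 of 18 were positive (median 0.30), and the early granule gene Mpo averaged 12 CPM in HbSS-BERK and 4.62 CPM in HbAA-BERK libraries (1.36, adjusted p = 0.05). The summed granulocyte level ran from 171 to 691 CPM in HbSS-BERK and from 128 to 775 CPM in HbAA-BERK libraries, so that the groups lay across each other. The part of these cells in the red cell result was not tested.

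**Figure D4:**
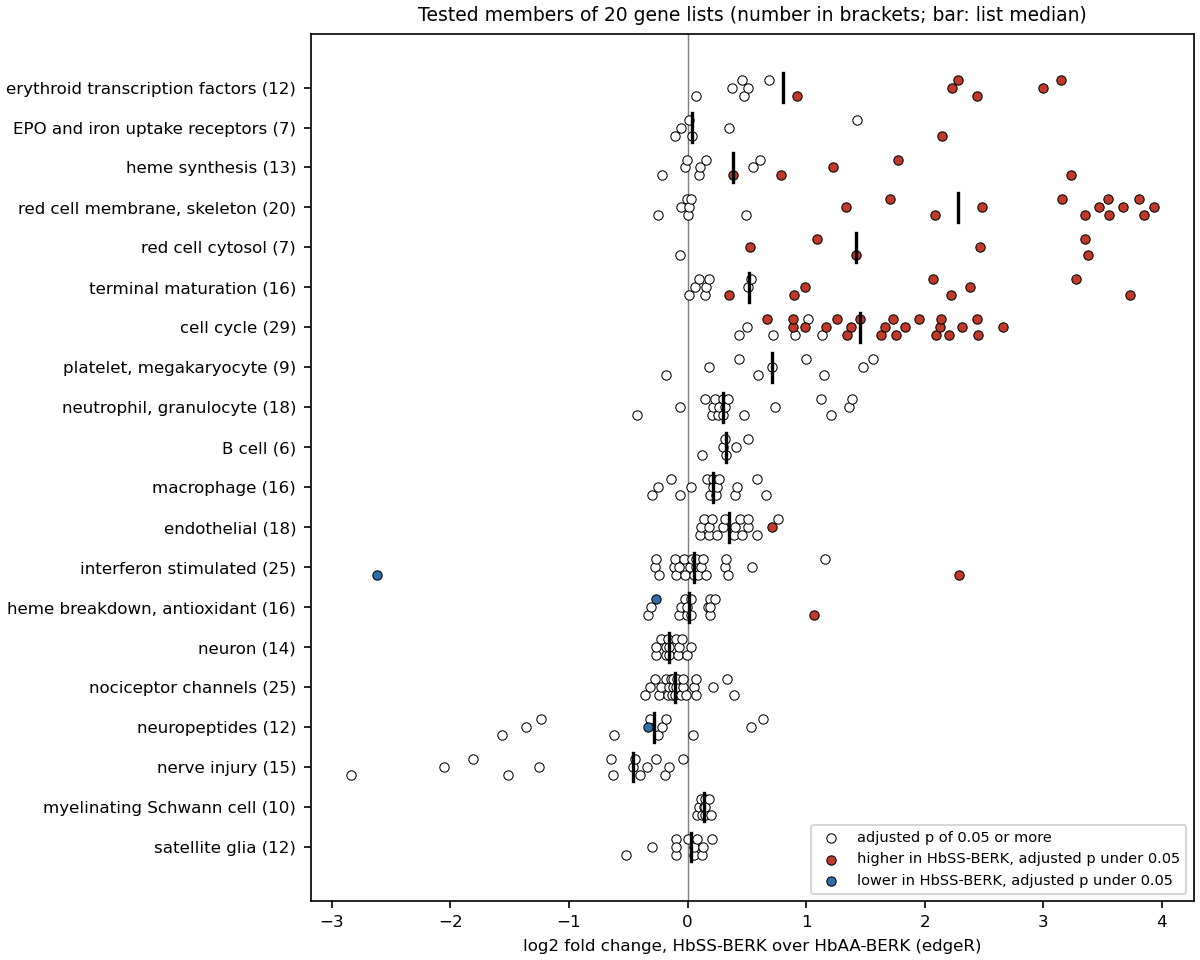
Log2 fold change of HbSS-BERK over HbAA-BERK for each tested member of 20 gene lists, with the number of tested genes in brackets and a bar at the list median. Filled points passed the test, higher in red and lower in blue. The 6 red cell lists and the cell cycle list stretch to the right (38 and 23 genes rose). All 15 nerve injury genes lie left of 0 with none past the test, and their summed level was highest in HbAA-BERK replicates 1 and 3.

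Beyond the lists, 129 genes rose that are in none of the red cell, globin or cell cycle lists. Apol11b, a member of the apolipoprotein L family, had the largest log2 fold change of them at 4.97 (SE 0.46, adjusted p = 0.00014). It ran from 5.04 to 25.3 CPM in HbSS-BERK libraries (median 13.7), against 0.218 to 0.962 CPM in HbAA-BERK libraries (median 0.299), with no overlap. Rsad2, which encodes the antiviral protein viperin, ran from 22.2 to 67.5 CPM in HbSS-BERK libraries (median 38.2), against 7.33 to 9.33 CPM in HbAA-BERK libraries (median 8.24), a change of 2.29 (SE 0.25, adjusted p = 0.00032). It was the only one of the 25 genes of the interferon list that rose. Outside that list, and chosen after their values were seen, the interferon-induced genes Isg20 (2.22, SE 0.26, adjusted p = 0.0005) and Ube2l6 (0.90, SE 0.14, adjusted p = 0.004), both counted under red cell maturation, and Oas3 (2.16, SE 0.44, adjusted p = 0.023), Gbp10 (2.00, SE 0.46, adjusted p = 0.048) and Gbp11 (1.79, SE 0.38, adjusted p = 0.031) rose too. Isg15 (1.16, adjusted p = 0.066) did not pass, Ifit1 had -0.28 and Irf7 0.33, and the list median was 0.06, near that of all genes. Pdzk1ip1, a small membrane protein whose gene neighbours Tal1, rose by 2.72 (SE 0.28, adjusted p = 0.00026).

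Heme breakdown and iron export gave 1 rise and 1 fall among 16 genes. Slc40a1, ferroportin, the only known iron exporter of mammalian cells, ran from 8.51 to 13.4 CPM in HbSS-BERK libraries (median 10.9), against 4.65 to 5.99 CPM in HbAA-BERK libraries (median 5.14), a change of 1.07 (SE 0.12, adjusted p = 0.00035). Hmox2, the constitutive heme oxygenase, fell by 0.27 (SE 0.05, adjusted p = 0.025), with 75.3 to 85.1 CPM in HbSS-BERK and 88.6 to 100 CPM in HbAA-BERK libraries. The inducible heme oxygenase Hmox1 averaged 37.8 CPM in HbSS-BERK and 39.3 CPM in HbAA-BERK libraries (-0.06, adjusted p = 0.97). Chosen after their values were seen, Cd5l (4.19, SE 0.51, adjusted p = 0.00064), Timd4 (1.45, SE 0.33, adjusted p = 0.046) and Fcna (1.58, SE 0.27, adjusted p = 0.0072), all known from tissue macrophages, rose without overlap. None of the 16 general macrophage genes passed, and their summed level was 179 to 540 CPM in HbSS-BERK and 181 to 360 CPM in HbAA-BERK libraries. Vcam1, the vascular adhesion molecule that leukocytes and sickle red cells bind, rose by 0.71 (SE 0.14, adjusted p = 0.018) and was the only one of 18 endothelial genes to pass, although all 18 were positive (median 0.35). Fbln1, the matrix protein fibulin 1, was the only one of 9 fibroblast genes that rose (1.25, SE 0.25, adjusted p = 0.02), and it did not pass without HbAA-BERK replicate 1 or 2.

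The genes that fell were fewer, and 6 of the 44 were in a list. Nnt, the mitochondrial enzyme that makes NADPH from NADH, had the smallest p of those that fell. It ran from 17.2 to 21.4 CPM in HbSS-BERK libraries (median 20.7), against 31.8 to 42.6 CPM in HbAA-BERK libraries (median 40.2), a change of -0.95 (SE 0.09, adjusted p = 0.00014). The HbSS-BERK libraries were tight and all lay well under the HbAA-BERK range. Gm7120 fell by 1.45 (SE 0.25, adjusted p = 0.0075), and Ccl28, a chemokine of mucosal surfaces, by 2.86 (SE 0.45, adjusted p = 0.004), with 0.191 to 1.81 CPM in HbSS-BERK and 2.23 to 6.32 CPM in HbAA-BERK libraries. These 3 genes are neighbours on chromosome 13. In RefSeq GRCm38.p6 Nnt starts at 119335527, Gm7120 at 119488086 and Ccl28 at 119623819, and of the genes between them that were tested Paip1 had a log2 fold change of -0.19 (adjusted p = 0.48), 4833420G17Rik -0.60 (adjusted p = 0.62) and 3110070M22Rik, which overlaps Gm7120, -0.89 (adjusted p = 0.64). Hmgcs1, the next one after Ccl28, had 0.02 (adjusted p = 0.995).

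More of the genes that fell lay close together. Of the 43 with a place in RefSeq, 11 started within 1 Mb of another one that fell (25.6%), while 5.23% of all genes tested started within 1 Mb of a gene that fell. For the 191 genes that rose the same shares were 34% and 23.6%. Beside the 3 on chromosome 13 these were Cxcl11 with Shroom3 and Hfm1 with Brdt on chromosome 5, Phtf1 with Capza1 on chromosome 3 and Alg1 with Hmox2 on chromosome 16. Chromosome 3 held 8 of the 43 (18.6%, and 4.94% of all genes tested), chromosome 5 held 7 (16.3%, and 6.31% of all) and chromosome 13 held 6 (14%, and 3.63% of all). The window was set after the positions were seen, and neighbouring genes are not independent of each other.

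Other genes that fell had differing roles. Cd59a, which stops the complement membrane attack complex on the cell's own surface, ran from 36.8 to 84.9 CPM in HbSS-BERK libraries (median 50.5), against 89.5 to 153 CPM in HbAA-BERK libraries (median 129), a change of -1.25 (SE 0.20, adjusted p = 0.0054). It was the only one of 10 complement genes to pass, and Cd55, the other shield of cell surfaces, was at -0.09 (adjusted p = 0.94). Cxcl11, an interferon-induced chemokine, fell by 2.62 (SE 0.34, adjusted p = 0.0011), with 0.185 to 0.765 CPM in HbSS-BERK and 1.2 to 3.05 CPM in HbAA-BERK libraries. Spp1, osteopontin, which large proprioceptive neurons make, ran from 117 to 158 CPM in HbSS-BERK libraries (median 130), against 187 to 308 CPM in HbAA-BERK libraries (median 238), a change of -0.82 (SE 0.13, adjusted p = 0.0036). Calcb, the β form of the pain peptide CGRP, fell by 0.33 (SE 0.07, adjusted p = 0.022), with 118 to 149 CPM in HbSS-BERK and 154 to 180 CPM in HbAA-BERK libraries. Its relative Calca had -0.31 (adjusted p = 0.5) and overlapped between groups. Sord, sorbitol dehydrogenase, fell by 0.62 (SE 0.09, adjusted p = 0.0034) and Alg1, an enzyme of N-glycan building, by 0.76 (SE 0.12, adjusted p = 0.004).

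**Figure D5:**
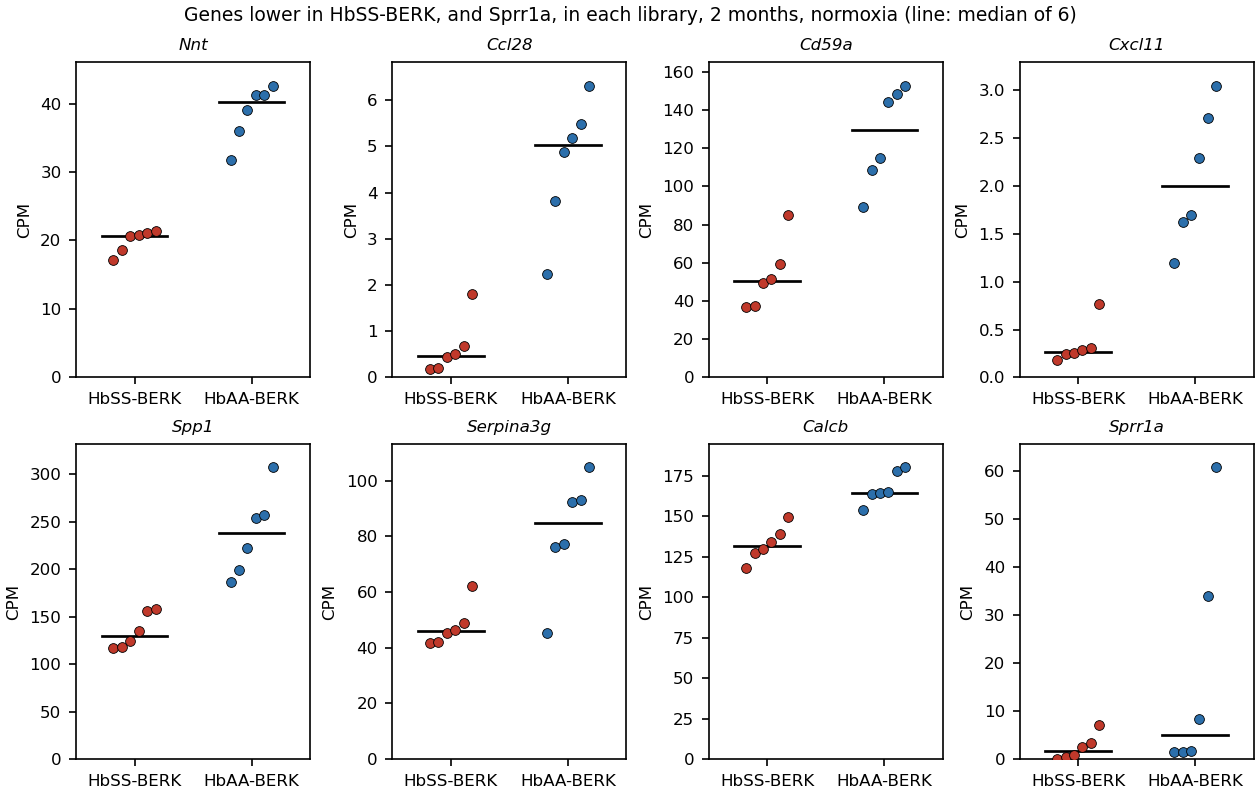
CPM of 7 genes that fell, and of Sprr1a, in each library, HbSS-BERK on the left and HbAA-BERK on the right of each panel, with a line at the median of 6. The HbSS-BERK libraries of Nnt lie at 17.2 to 21.4 CPM, below all HbAA-BERK libraries. Those of Serpina3g and Sprr1a overlap with the HbAA-BERK libraries, for Serpina3g through HbAA-BERK unnumbered 1 alone (45.2 CPM).

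Pain and injury genes showed no call apart from Calcb and Spp1. None of 25 nociceptor channels and receptors, 14 opioid and cannabinoid genes and 14 general neuron genes rose or fell, beside 1.55% of all genes tested in either direction. Scn10a, the sensory neuron sodium channel Nav1.8, had a log2 fold change of -0.13 (adjusted p = 0.94), Trpv1 -0.12 (adjusted p = 0.93), Trpa1 0.39 (adjusted p = 0.76) and Oprm1, the µ-opioid receptor, 0.14 (adjusted p = 0.99). Of the neuron genes 13 of 14 were negative (median -0.16), and their summed level ran from 15190 to 21921 CPM in HbSS-BERK and from 18773 to 24022 CPM in HbAA-BERK libraries. All 15 nerve injury genes tested were negative, with a median of -0.46, and none passed. Their summed level was 962 CPM in HbAA-BERK replicate 1 and 1189 CPM in HbAA-BERK replicate 3. The other HbAA-BERK libraries had 611 to 709 CPM, which overlapped the 531 to 672 CPM of the HbSS-BERK libraries. Atf3, the injury transcription factor, averaged 15.1 CPM in HbSS-BERK and 43.6 CPM in HbAA-BERK libraries (adjusted p = 0.33). Sprr1a, a gene that axon damage switches on, ran from 0.128 to 7.06 CPM in HbSS-BERK libraries (median 1.71), against 1.41 to 60.8 CPM in HbAA-BERK libraries (median 5.01), a difference of -2.84 on the log2 scale (SE 1.04, adjusted p = 0.34). The gap rests on 2 HbAA-BERK mice with more than 30 CPM, replicates 1 and 3. With both left out, a choice made after seeing these values, 165 genes rose, 34 fell and 14 passed the Bonferroni rule, and 34 of the 74 red cell genes and 20 of the 29 cell cycle genes rose.

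In exact permutation tests over the 12 libraries (two-sided, difference of mean log2(CPM + 0.5), all arrangements of the libraries), Alas2, Klf1 and Hba-x reached p = 0.00216, the smallest value that this design can give (0.00722 adjusted over the 10 genes tested so). Their groups were already known not to overlap, so this value was fixed in advance and adds no support to their edgeR calls. With these genes in the set of 10, the adjusted values of Serpina3g, Mgll and Serpina1e below came out lower. An adjustment without them was not made. Serpina3g, a serine protease inhibitor, gave p = 0.0108 (adjusted p = 0.0271, exact test), with 41.7 to 62.2 CPM in HbSS-BERK and 45.2 to 105 CPM in HbAA-BERK libraries, and it fell by 0.77 in edgeR (SE 0.17, adjusted p = 0.041), a call that was lost when any of 10 of the 12 libraries was left out. Mgll, which degrades the endocannabinoid 2-arachidonoylglycerol, gave an exact p = 0.0173 (adjusted p = 0.0346) with 190 to 285 CPM in HbSS-BERK and 126 to 200 CPM in HbAA-BERK libraries, while edgeR over all genes gave an adjusted p = 0.23. Serpina1e, a liver serine protease inhibitor, had 62 reads in HbSS-BERK and 286 reads in HbAA-BERK libraries and an exact p = 0.0238 (adjusted p = 0.0397), with an adjusted p = 0.52 in edgeR. Sprr1a (exact p = 0.119), Trpa1 (exact p = 0.123) and Scn10a (exact p = 0.431) did not pass, and Xist, with at most 2 reads a library, gave an exact p = 0.0411 (adjusted p = 0.0588).

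The same genotype difference was read in mice that had no part in these calls. After H/R at 2 months (6 HbSS-BERK and 7 HbAA-BERK libraries) 190 of the 191 genes that rose in normoxia were again higher in HbSS-BERK mice, where 49.18% of all genes tested were, with a median log2 fold change of 0.93 after H/R and 1.48 in normoxia. At 5 months in normoxia (5 HbSS-BERK and 6 HbAA-BERK libraries) 189 of the 191 were higher, where 50.3% of all were, with medians of 0.86 at 5 months and 1.49 at 2 months. Of the 44 that fell, 42 were lower in HbSS-BERK mice in each of these other groups. Since the genes were called by their values at 2 months in normoxia, their medians there are a description. The change of Klf1 was 1.23 after H/R, with 10.8 CPM in HbSS-BERK and 4.64 CPM in HbAA-BERK mice on average, and 3.15 in normoxia, and the difference of these changes was 1.92 (SE 0.64, unadjusted p = 0.00608 and adjusted p = 1 in edgeR). No gene passed the edgeR test of a difference between the genotype effects in normoxia and after H/R (0 of 15544, 332 at an unadjusted p under 0.05, and 7 with DESeq2), nor between those at 2 and 5 months (0 of 15616, 471 at an unadjusted p under 0.05, and 0 with DESeq2).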

How the data were processed

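Poly(A) RNA of DRG was sequenced from both ends. Per the labels and the paper's methods, the authors used Trimmomatic for trimming, TopHat2 2.0.13 with Bowtie2 2.2.4.0 for alignment to mm10 and featureCounts for counting. They deposited raw read counts per gene, and FPKM values (fragments per kilobase and per M mapped) from Cuffnorm. Whether reads were counted by strand is not given in the sources used here, so overlapping and antisense genes cannot be told apart. The 27 rows named as dates were left out, and 1 column of sample values was not used, since the age in its heading matches no group. Genes were filtered with filterByExpr, scaled by TMM and tested with the quasi-likelihood test of edgeR 4.0.16 (R 4.3.3) on the deposited counts of these 12 libraries, with no covariate. P-values were adjusted over all genes tested.

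The members and the 42 gene lists were chosen with earlier results of these data known. Named genes are the 20 called with the smallest p in each direction, up to 6 called members per list with its most abundant member, the murine globins, Sprr1a, Serpina1e and Serpina3g, and the 10 genes of the permutation test. Other list members, and the neighbours of genes that fell, were chosen after their values were seen. Some list members are counted but not reported singly here. Alternatives were RLE size factors, no filter, DESeq2 1.42.0, the exact test of edgeR, limma 3.58.1 on log2(FPKM + 1) and log2(FPKM + 0.1), other sets of samples and terms, and leaving out each library. The edgeR script was tested on simulated data. Exact permutation tests used log2(CPM + 0.5).

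Whether replicate numbers pair the genotypes was checked by the correlation of deviations from the group means. It was 0.292 to 0.522 for the 4 same-numbered pairs. For the 14 pairs of other numbers within the same set, replicates 1 to 3 or the rest, it was -0.158 to 0.593. Across these sets it was -0.549 to 0.0978, for 18 pairs. The counts with the block are given with the calls. Promoters and coordinates are from RefSeq GRCm38.p6.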

Additional observations from a re-analysis of the deposited data

Results flagged for a closer look

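Among 313 groups of 6 libraries looked at, 25 (7.99%) had 1 library far from the other 5. The rule used gives about 1 in 20 by chance for independent, normally distributed values. These were untransformed CPM, and list sums share genes with the single genes, so the shares cannot show an excess over chance. No explanation was tested. HbSS-BERK replicate 2 stood high for Car2 (315 CPM, the others 125 to 184), Fam46c (38.6 CPM) and Alb (3.18 CPM). Replicate 5 stood high for Hbb-bh1 (6.89 CPM) and low for the summed neuropeptides (1670 CPM), and replicate 6 alone had a read of Hbb-bh2 (0.0484 CPM). Replicate 1 stood high for Cxcl11 (0.765 CPM) and Myl12b (219 CPM). Replicate 4 stood high for Ccl28 (1.81 CPM), Capza1 (17.4 CPM) and the summed cartilage and bone genes (26.3 CPM), and low for the summed opioid and cannabinoid genes (367 CPM).

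HbSS-BERK replicate 3 stood high for Aqp4 (48.9 CPM), the summed oligodendrocyte and spinal cord genes (121 CPM), Serpina1e (3.64 CPM, the others 0 to 0.128) and Serpina3g (62.2 CPM). HbAA-BERK replicate 3 stood high for Aqp4 (19.5 CPM) and the oligodendrocyte and spinal cord genes (62.9 CPM) too, for Trpa1 (117 CPM, the others 38.1 to 58.5) and for the summed keratinocyte genes (14.6 CPM). HbAA-BERK replicate 1 stood high for Alb (26.9 CPM) and the summed hepatocyte genes (51 CPM), and low for Hemgn (0.29 CPM). HbAA-BERK replicate 2 stood high for Tsc22d3 (315 CPM) and the summed glucocorticoid response genes (804 CPM).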

How the results depend on the processing

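No gene called at 2 months in normoxia took the opposite sign under any alternative run, while the number of calls varied widely. DESeq2 gave 475 calls (330 rose, 145 fell, 126 by the Bonferroni rule) and 7 for the genotype by H/R interaction, and the edgeR exact test 373 (301, 72 and 133). The replicate block over the numbered pairs gave 81 calls (65 rose, 16 fell, 13 Bonferroni), and the same pairs with no replicate block 58 (51, 7 and 2). A term for replicates 1 to 3 gave 472 (335 rose, 137 fell) and the Y-linked level as a covariate 533 (350 rose, 183 fell). Replicates 1 to 3 alone gave 5 calls (2 rose, 3 fell, 1 Bonferroni) and the other libraries, as many, 457 (357 rose, 100 fell). By the Bonferroni rule limma on log2(FPKM + 1) with no filter gave 26 genes. Without both HbAA-BERK libraries high in Sprr1a, chosen after seeing the data, that rule gave 14. Leaving out 1 library gave 145 to 221 genes that rose, 29 to 54 that fell and 26 to 53 by the Bonferroni rule, the last of these lowest without HbAA-BERK replicate 1 or 2. With no TMM factor 56 genes had every HbSS-BERK library below every HbAA-BERK library, and leaving out 1 library gave 117 to 208, the most without HbAA-BERK replicate 3. With a library left out this condition is easier to meet, so these counts are not on a par with that of all 12 libraries. The cause of the spread among them was not tested. Genes under the filter on low counts, such as Hbb-bh1, got no test across all genes at this depth.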
